A study of Mus musculus with 8 samples.

Results

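The 45 genes described here encode the machinery of DNA replication, from origin licensing to nucleotide supply. They were chosen by name, as the entries of the deposited tables that carry their symbols, with earlier results of these data known. All 45 were found in both tables, among 12818 genes with ribosome footprint values and 13436 genes with total RNA values. The values come from mouse J1 embryonic stem cells of the strain 129S4/SvJae, grown feeder-free on gelatin-coated plates with LIF (leukemia inhibitory factor) and serum. The cells had been infected on day 0 either with shRNAs against Eif4a2, an RNA helicase of the family that unwinds mRNA during translation initiation, or with control shRNAs. Infected cells were kept in puromycin (1 μg/mL) over 3 days, and the harvest was on day 4.5, after 1 min in 0.1 mg/mL cycloheximide, which holds ribosomes on mRNA. Ribosome profiling sequences the mRNA fragments that ribosomes protect (footprints), and total RNA was sequenced from cells of the same conditions. This gives 4 groups of 2 libraries each, which the labels' protocol calls biological replicates. Every library, controls included, therefore comes from infected, puromycin-selected cells. The protocol names shNT and shGFP as control shRNAs and sheIF4A2-2 and sheIF4A2-3 as the shRNAs against Eif4a2, and does not say which of them each replicate received. If replicates of a group carry different shRNAs, replicate and shRNA cannot be told apart.

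Replication starts at origins, where the origin recognition complex (ORC), Cdc6 and Cdt1 load the Mcm2-7 ring onto DNA, a step called licensing that geminin (Gmnn) restrains by binding Cdt1. In S phase Cdc45 and the GINS complex join the ring to form the active helicase. Polymerase alpha and primase then make the RNA-DNA primers, replication factor C loads the sliding clamp PCNA, and polymerases epsilon and delta extend the leading and lagging strands. Many of these genes are transcribed under the control of E2F factors in dividing cells, and embryonic stem cells, which have a short G1 phase, express them at high levels.

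The targeted gene was lower in the knockdown in both assays, by an amount that did not pass the test after adjustment. In footprints Eif4a2 read 395 and 409 CPM (reads scaled to a common library size) in the control libraries, and 311 and 153 CPM in the knockdown libraries. In total RNA it read 739 and 969 CPM in the control and 583 and 617 CPM in the knockdown. The knockdown means were 57.8% of control in footprints and 70.3% in total RNA, with limma adjusted p-values of 0.273 and 0.290. Depth ranged from 7947827 to 9573832 reads in the 3 footprint libraries whose recovery of whole reads from the values was accepted. In the 4 total RNA libraries it ranged from 8564582 to 12840349. The values of footprint control 2 were also whole multiples of its smallest value (100%), which would give 10682677 reads. Its recovery was not accepted, and it was left out of the count tests. The 12 embryonic stem cell markers were all measured, and their summed footprints were 7615 to 7976 CPM in the control and 5804 to 5852 CPM in the knockdown, with 3 of the 12 fold changes positive. Zfp42 alone read 2027 and 2300 CPM in control footprints and 959 and 820.2 CPM in the knockdown. Of 10 fibroblast markers 4 were measured, at a sum of 17.1 to 25.5 CPM over the 4 footprint libraries. Of 6 trophoblast markers 4 were measured in footprints, all with positive fold changes. Their sums were 51.9 to 60.8 CPM in the control and 72.7 to 75.3 CPM in the knockdown. Most of this was Tfap2c, at 59.7 and 49.7 CPM in the control and 69.8 and 67.7 CPM in the knockdown. Gcm1 read only 0 and 0.297 CPM against 1.91 and 2.62 CPM, and Hand1 0.106 and 0.892 CPM against 1.80 and 1.78 CPM. Of 8 primitive endoderm markers 6 were measured in footprints, 3 with negative and 3 with positive fold changes. Markers of primed epiblast also lay higher, with total RNA sums of 469 to 516 CPM in the control and 1002 to 1029 CPM in the knockdown. In bulk libraries like these, fewer cells of a type and less RNA per cell cannot be told apart, and whether the shift in these markers bears on the replication genes was not tested.

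On the deposited scale, knockdown 1 of the footprints and control 2 of the total RNA stood apart in these genes. Footprints of 34 of the 45 genes were lowest in knockdown 1 (75.6%, against 34.4% of all genes with a mean of at least 10 CPM), and 21 were highest in knockdown 2. In knockdown 1 the median gene lay 0.20 log2 units below the mean of the 4 footprint libraries, whereas in knockdown 2 it lay 0.12 above. Replicate 2 exceeded replicate 1 of the knockdown for 38 of the 45 genes, by a median of 0.30 log2 units. The total RNA of 35 genes was highest in control 2 (77.8%, against 40.8% of all genes with a mean of at least 10 CPM), and that of 25 genes was lowest in control 1. Control 2 exceeded control 1 for 40 of the 45 genes, by a median of 0.32 log2 units, while the 2 knockdown libraries of total RNA differed by a median of 0.0043. The shared shift of these genes between replicates was thus larger within the knockdown for footprints and within the control for total RNA. Footprints of the 2 controls differed by a median of 0.08. Over all genes with a mean of at least 10 CPM, the footprint difference between replicates had an SD of 0.42 in the knockdown and 0.37 in the control.

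**Figure D1:**
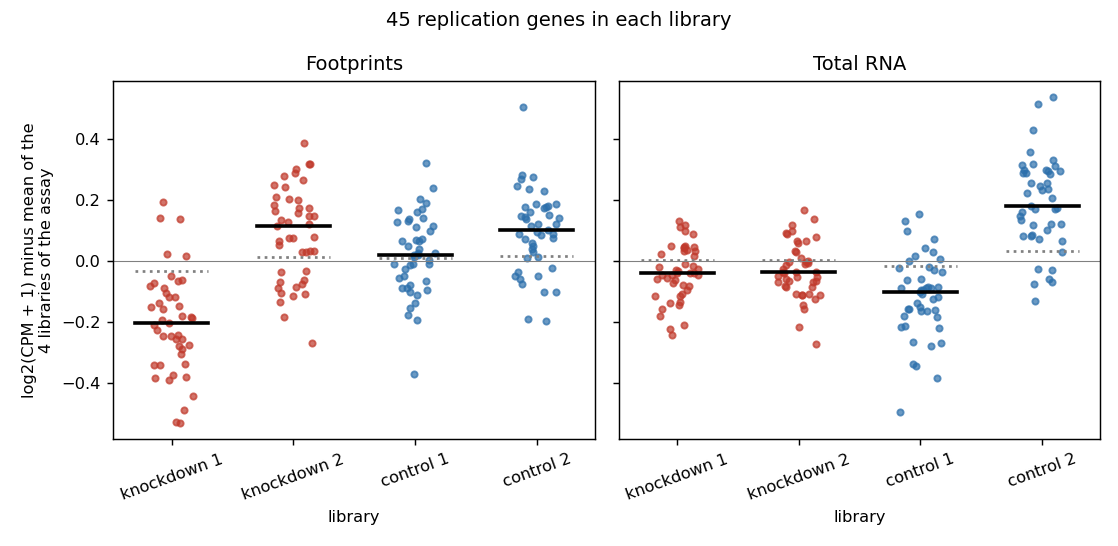
Deviation of each of the 45 replication genes from its own mean over the 4 libraries of the assay, on the log2(CPM + 1) scale, with footprints on the left and total RNA on the right. Points are genes, black bars are their medians, and dotted bars are the medians of all genes with a mean of at least 10 CPM. Knockdown 1 is low in footprints, at a median of -0.20, and control 2 is high in total RNA, at a median of 0.18.

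This displacement was not limited to replication genes. Of the 1997 genes with a mean footprint value of at least 100 CPM, 56.7% were lowest in knockdown 1, and of the 27 replication genes at that level 22 were. Of the 2356 genes with a mean total RNA value of at least 100 CPM, 50.5% were highest in control 2, and of the 27 replication genes at that level 22 were. Related lists varied in this. Of 22 genes of mitosis 18 had their lowest footprints in knockdown 1 and 14 their highest total RNA in control 2, but of 13 E2F and pocket proteins only 3 and 2 did, and 8 of these 13 had their lowest total RNA in control 2. In the other 4 lists, shown further on, 45.5% to 53.8% of genes were lowest in knockdown 1 and 50% to 69.2% highest in control 2. The column of knockdown 1 also had the lowest sum of the 4 footprint columns, 894269, the others lying between 1001553 and 1058777. The column of control 2 had the highest sum of the total RNA columns, 1052295, the others lying between 964909 and 978053. When every column was scaled to the same sum, a setting chosen after these sums were seen, knockdown 1 was the lowest footprint library for 20 of the 45 genes (44.4%, against 16.7% of all genes with a mean of at least 10 CPM), and control 2 the highest total RNA library for 27 (60%, against 28.9%). In these shares the replication genes thus stood further out than all genes with a mean of at least 10 CPM under this scaling too. Genes of at least 100 CPM were not compared under it, so these shares are not matched for abundance. However, knockdown 2 then lay furthest from the mean in footprints, at a median of 0.10 against -0.06 for knockdown 1. It was the highest footprint library for 24 genes (53.3%, against 22.7% of all genes with a mean of at least 10 CPM). In total RNA control 1 then lay at a median of -0.09 and control 2 at 0.09.

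The first comparison asks whether the ribosome footprints of replication genes differed between knockdown and control. None of the 45 genes passed a limma adjusted p of 0.05, and neither did any of the 12587 genes tested (0%). Before adjustment 2 of 45 had a p below 0.05 (Pola1 and Rpa1), against 12.9% of all genes tested. The log2 fold change was negative for 33 of the 45 genes, against 49.4% of all genes, with a median of -0.12 against 0.01 for all genes. The 2 knockdown libraries lay below both controls for 14 genes, against 22.6% of all genes, and above both for 2, Rpa3 and Fen1, against 22.3%. In footprints edgeR's quasi-likelihood test, DESeq2 and edgeR's likelihood ratio test were run on 3 libraries, with control 1 as the only control. Each gave a median log2 fold change of -0.04 for the 45 genes. The median of the 45 depended on a single library, being 0.09 without knockdown 1, when 19 of 45 values were negative, and -0.28 without knockdown 2, when 40 were. With equal column sums it was 0.000196, while that of all genes was 0.12.

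The second comparison asks the same of total RNA, which reports mRNA abundance. Again none of the 45 genes passed, and none of 13436 did (0%), with 1 gene at an unadjusted p below 0.05 (Pola1) against 14.9% of all genes. The fold change was negative for 30 of 45, against 50.3%, with a median of -0.07 against 0.00 for all genes. Knockdown lay below control without overlap for 13 genes, against 24.6%, and above it for 5, against 23.3%. Those 5 were Orc5, Cdc45, Rfc2, Pola2 and Pole. In both assays together 9 genes lay below control without overlap (Mcm2, Mcm3, Mcm6, Mcm10, Orc1, Cdt1, Pola1, Lig1 and Rrm2) against 12.4% of the 12416 genes in both tables, and none lay above in both, against 12.4%. Other tools also called no replication gene, with edgeR's quasi-likelihood test calling 0 genes, DESeq2 272 and edgeR's likelihood ratio test 824 of all genes. No replication gene had an FDR below 0.05 in the authors' deposited table, where 1.68% of genes did in footprints and 5.4% in total RNA, and its lowest values among the 45 were those of Pola1, 0.364 in footprints and 0.203 in total RNA.

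The intervals show the size of change that the fit allows for each gene, given the deposited scaling and a variance shared in part across genes. All 45 had a 95% interval of the fold change within 2-fold in either direction in footprints, and all 45 in total RNA, against 85.4% and 88% of genes with a mean of at least 10 CPM. Within 1.5-fold lay 22 genes in footprints, against 32.6%, and 28 in total RNA, against 44.5%. For the other genes the interval reaches beyond 1.5-fold in at least 1 direction. The replication genes were deeply read, at 110 to 10619 reads per gene in the 3 footprint libraries and 190 to 11400 in the total RNA libraries, and the intervals are computed from the spread between libraries, which includes counting error.

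**Figure D2:**
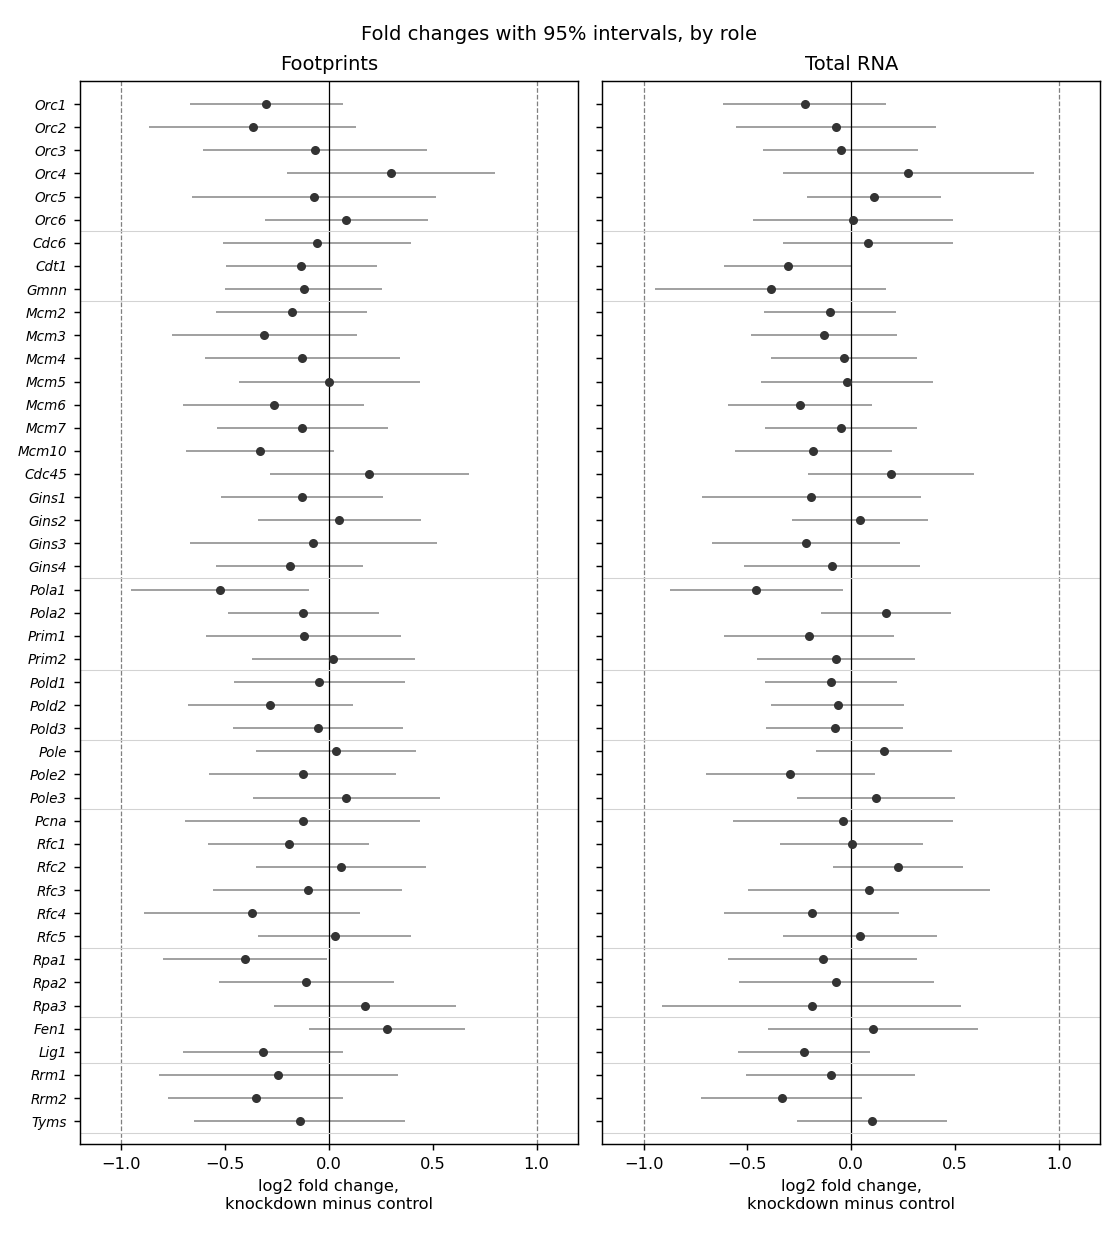
Log2 fold change of knockdown over control for each of the 45 genes in footprints (left) and total RNA (right), ordered by role, with limma 95% intervals as bars, a solid line at 0 and dashed lines at 2-fold. Every interval lies within the dashed lines, and those of Pola1 (both assays) and Rpa1 (footprints) do not reach 0.

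In the origin recognition complex, the 6-subunit ATPase that marks origins, 4 of 6 footprint fold changes were negative with a median of -0.07, and 3 of 6 in total RNA with a median of -0.02. Orc1, the subunit with the active ATPase site, read 124 and 140.0 CPM in control footprints and 101 and 113 CPM in the knockdown. Its total RNA read 115 and 146 CPM against 108 and 112 CPM. Both pairs were separate, with log2 fold changes of -0.30 ± 0.16 (SE) in footprints (adjusted p = 0.473) and -0.22 ± 0.16 in total RNA (adjusted p = 0.561). The other members ranged from -0.37 (Orc2) to 0.30 (Orc4) in footprints. Orc4 also had the highest total RNA value of the complex, 0.28 ± 0.25, which rested on its low value in control 1 (32.8 CPM, against 54.6 CPM in control 2 and 50.4 and 52.5 CPM in the knockdown).

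Of the licensing factors, Cdt1, which brings the Mcm ring to ORC, read 245 and 252 CPM in control total RNA and 202 and 199.97 CPM in the knockdown. Its replicates lay closer together than the groups, and its log2 fold change was -0.30 ± 0.13 (adjusted p = 0.340). In footprints Cdt1 read 313 and 348 CPM in the control and 301 and 300.4 CPM in the knockdown, a log2 fold change of -0.13 ± 0.16. Its inhibitor Gmnn read 94.1 and 147 CPM in control total RNA and 94.8 and 84.8 CPM in the knockdown, so that control 1 and knockdown 1 were alike and the value of -0.39 ± 0.23 rested on control 2. Gmnn footprints were 151 and 141 CPM in the control and 123 and 147 CPM in the knockdown. Cdc6, the ATPase that recruits the ring together with Cdt1, was at -0.06 in footprints and 0.08 in total RNA.

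The Mcm2-7 ring is the motor of the helicase, and its 6 subunits were read at high depth. Mcm2 footprints were 446 and 416 CPM in the control and 385 and 376 CPM in the knockdown, and its total RNA was 369 and 358 CPM against 343 and 334 CPM. Mcm3 footprints were 931 and 957 CPM against 668 and 866 CPM, with total RNA of 524 and 598 CPM against 517 and 504 CPM. Mcm6 footprints were 569 and 540.3 CPM against 399 and 533 CPM, with total RNA of 551 and 618 CPM against 488 and 495 CPM. In these 3 subunits each knockdown library lay below each control in both assays, as in 12.4% of the genes in both tables. Their footprint log2 fold changes were -0.18 ± 0.16, -0.31 ± 0.20 and -0.27 ± 0.19. Their total RNA values were -0.10 ± 0.13, -0.13 ± 0.14 and -0.25 ± 0.14, and limma adjusted p-values in both assays ran from 0.469 to 0.763. Without footprint knockdown 1 the footprint values of Mcm2, Mcm3 and Mcm6 were -0.20, -0.12 and -0.06. Without total RNA control 2 their total RNA values were -0.12, -0.04 and -0.16.

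The other subunits of the ring overlapped between groups. Mcm4 footprints were 409 and 423 CPM in the control and 314 and 459.7 CPM in the knockdown, and its total RNA 289.8 and 334 CPM against 294 and 314 CPM. Mcm5 footprints were 1076 and 970.5 CPM against 943 and 1111 CPM, and its total RNA 791 and 988 CPM against 888 and 857 CPM. Mcm7 footprints were 692 and 686 CPM against 573 and 695 CPM, and its total RNA 442 and 523 CPM against 457 and 471 CPM. For each of the 3 the knockdown 2 footprints exceeded both controls. Their footprint log2 fold changes were -0.13 ± 0.21, 0.00 ± 0.19 and -0.13 ± 0.18, and their total RNA values -0.03 ± 0.14, -0.02 ± 0.17 and -0.05 ± 0.15. With equal column sums the total RNA values of Mcm4, Mcm5 and Mcm7 were 0.04, 0.05 and 0.02, so no direction holds for them. The subunits are needed in equal numbers in the ring, but whether the subunits differed from each other in their change was not tested.

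**Figure D3:**
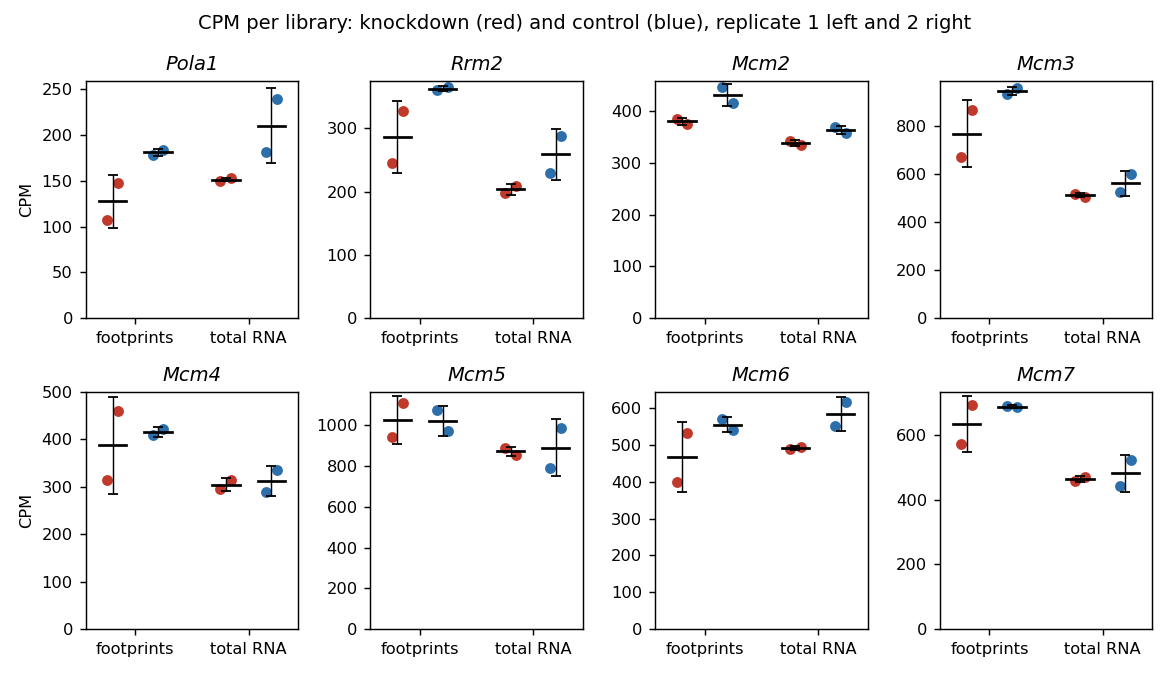
CPM of Pola1, Rrm2 and the 6 subunits of the Mcm2-7 ring in every library, with footprints on the left and total RNA on the right of each panel. Red points are knockdown and blue points control libraries, with replicate 1 to the left of replicate 2, bars show the mean, and whiskers show 1 SD (n = 2). The 2 knockdown points lie below both control points in both assays for Pola1, Rrm2, Mcm2, Mcm3 and Mcm6.

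Among the factors that turn the ring into an active helicase, Mcm10, which binds it at the start of unwinding, was among the 5 lowest unadjusted p-values in footprints. Mcm10 read 224 and 225 CPM in control footprints and 169 and 188 CPM in the knockdown, and its log2 fold change was -0.33 ± 0.16 (adjusted p = 0.422). In total RNA it read 216.4 and 268 CPM in the control and 209 and 216.0 CPM in the knockdown, with -0.18 ± 0.15. Cdc45 lay at 0.19 in both assays, with total RNA of 60.3 and 77.2 CPM in the control and 78.2 and 77.8 CPM in the knockdown. The 4 GINS subunits lay between -0.19 (Gins4) and 0.05 (Gins2) in footprints and between -0.22 (Gins3) and 0.04 (Gins2) in total RNA.

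Pola1, the catalytic subunit of polymerase alpha, which extends the RNA primer made by primase, had the largest fold change and the smallest p-value of the 45 genes in both assays. Its footprints were 179 and 184 CPM in the control and 107 and 148 CPM in the knockdown. Its total RNA was 181 and 239 CPM in the control and 150.0 and 153 CPM in the knockdown. All knockdown values lay below all control values within each assay. The log2 fold change was -0.52 ± 0.19 in footprints (95% interval -0.95 to -0.09, adjusted p = 0.296) and -0.46 ± 0.17 in total RNA (95% interval -0.87 to -0.04, adjusted p = 0.298). The mean CPM in the knockdown was 70.3% of the control mean in footprints and 72.0% in total RNA. Leaving out each library in turn gave log2 fold changes of -0.29 to -0.75 in footprints and -0.26 to -0.66 in total RNA. The weakest footprint value was that without knockdown 1, and the weakest total RNA value that without control 2. Before adjustment limma's p was 0.0225 and 0.0360, while an exact permutation test of 2 values against 2 cannot give a p below 0.333.

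The other subunits of the complex had fold changes nearer to 0 in both assays. Pola2, the regulatory B subunit, read 131 and 139 CPM in control footprints and 116 and 132 CPM in the knockdown. Its total RNA was 82.7 and 83.4 CPM in the control and 91.2 and 95.6 CPM in the knockdown, above both controls. The primase subunits lay at -0.12 (Prim1) and 0.02 (Prim2) in footprints and at -0.20 and -0.07 in total RNA. Whether the subunits differed from Pola1 in their change was not tested.

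Promoters are shown for Pola1 and Rrm2, the 2 genes that were among the 5 smallest unadjusted p-values in both assays, and for Mcm5, whose 2 groups were nearly equal in footprints. The RefSeq table (GRCm38.p6, another build than that of the files) gave the 250 bases before the annotated start for 37 of the 45 genes, as 45 windows. Words of 2 kinds were searched on both strands, namely any of 4 words that E2F factors are known to bind (TTTCCCGC, TTTCGCGC, TTTGCCGC and TTTGGCGC) and CCAAT, known as the site of NF-Y. An E2F word stood in 9 of the 45 windows (20%), against 1.86% of 32851 windows of all genes, and CCAAT in 24 (53.3%), against 33.8%. Words of both kinds stood in 7 of the 37 genes, each gene counted over all its windows. Of the windows of all genes 0.737% held both, a share per window rather than per gene. The sequences below run 5′ to 3′ on the strand of the gene and end at the base before its start, with the words in capitals.
Pola1 (chrX:93632156-93632405, minus strand): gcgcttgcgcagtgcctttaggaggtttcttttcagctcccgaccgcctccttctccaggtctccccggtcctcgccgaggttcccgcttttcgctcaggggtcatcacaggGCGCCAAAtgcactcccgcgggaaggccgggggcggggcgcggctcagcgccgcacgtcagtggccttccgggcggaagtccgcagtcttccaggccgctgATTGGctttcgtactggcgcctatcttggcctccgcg
Rrm2 (chr12:24708004-24708253, plus strand): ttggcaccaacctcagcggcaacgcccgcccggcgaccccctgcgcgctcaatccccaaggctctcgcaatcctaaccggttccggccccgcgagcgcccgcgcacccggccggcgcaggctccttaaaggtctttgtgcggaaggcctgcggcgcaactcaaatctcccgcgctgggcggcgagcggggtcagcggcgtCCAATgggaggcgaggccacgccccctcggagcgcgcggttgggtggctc
Mcm5 (chr8:75109259-75109508, plus strand): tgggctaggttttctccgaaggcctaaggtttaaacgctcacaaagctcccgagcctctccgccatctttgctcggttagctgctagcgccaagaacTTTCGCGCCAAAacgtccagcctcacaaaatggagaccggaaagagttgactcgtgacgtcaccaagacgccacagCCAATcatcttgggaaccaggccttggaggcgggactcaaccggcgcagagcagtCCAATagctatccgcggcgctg
The Pola1 window holds 1 E2F word (read as GCGCCAAA, 138 bases before the start) and 1 CCAAT (read as ATTGG, 37 bases before). The Rrm2 window holds 1 CCAAT, 50 bases before the start, and no E2F word of these 4 spellings. In the Mcm5 window 2 E2F words overlap, TTTCGCGC from 153 and GCGCCAAA from 149 bases before the start, and 2 CCAAT words stand 77 and 22 bases before it. Pola1, the gene with the lowest footprint fold change of the 45, and Mcm5, at 0.00, thus both hold words of both kinds. A match is a match of letters only, and binding was not measured.

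Of the enzymes that synthesize the bulk of new DNA, polymerase delta had 3 negative values of 3 in both assays, from -0.28 to -0.05 in footprints and from -0.10 to -0.07 in total RNA. Pold2, its accessory subunit, read 208 and 163 CPM in control footprints and 150.2 and 152 CPM in the knockdown, and 124 and 113 CPM against 113 and 114 CPM in total RNA. Only the footprint groups of Pold2 were separate, and its 2 controls differed by more than the lower control did from the knockdown. Polymerase epsilon ranged from -0.13 to 0.08 in footprints and from -0.29 to 0.16 in total RNA. Its subunit Pole2 gave the lowest of these, with total RNA of 42.5 and 53.7 CPM in the control and 37.9 and 39.8 CPM in the knockdown (log2 fold change -0.29 ± 0.17, adjusted p = 0.467), while the catalytic subunit Pole lay above control.

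The clamp gene Pcna varied widely between libraries of one group. Its footprints were 551 and 614 CPM in the control and 408 and 693 CPM in the knockdown, and its total RNA 332 and 503 CPM in the control and 395 and 400.2 CPM in the knockdown. The fold changes of -0.13 ± 0.25 and -0.04 ± 0.22 had errors larger than themselves. Of the clamp loader, Rfc2 read 129.96 and 138 CPM in control total RNA and 159 and 155 CPM in the knockdown, the highest p-ranked positive value of the 45 genes (0.23 ± 0.13, adjusted p = 0.465). Rfc2 footprints overlapped, at 87.0 and 107 CPM in the control and 92.5 and 109 CPM in the knockdown. Rfc4 had the lowest footprint value of the loader, -0.37 ± 0.23, with overlapping groups.

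Rpa1, the large subunit of the protein that coats single-stranded DNA, read 624 and 691 CPM in control footprints and 467 and 527 CPM in the knockdown. In total RNA it read 434 and 596 CPM in the control and 461 and 463 CPM in the knockdown. The groups were separate in footprints and overlapped in total RNA, with log2 fold changes of -0.40 ± 0.17 (adjusted p = 0.375) and -0.14 ± 0.19 (adjusted p = 0.778). Rpa3, the smallest subunit, lay the other way in footprints, with 29.2 and 24.9 CPM in the control and 31.7 and 29.4 CPM in the knockdown. Its total RNA was 21.7 and 40.8 CPM in the control and 26.9 and 25.1 CPM in the knockdown, so that the 2 controls bracketed the knockdown.

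Lagging-strand maturation gave 2 opposite values in footprints. Lig1, the ligase that seals Okazaki fragments, read 444 and 417 CPM in control footprints and 318 and 375 CPM in the knockdown, and 237 and 223 CPM against 190.0 and 203 CPM in total RNA. Each knockdown library lay below each control in both assays, with log2 fold changes of -0.32 ± 0.17 (adjusted p = 0.470) and -0.23 ± 0.13 (adjusted p = 0.470). Fen1, the nuclease that removes the primer flap, read 151 and 140.1 CPM in control footprints and 162 and 193 CPM in the knockdown, with a log2 fold change of 0.28 ± 0.16 (adjusted p = 0.516). Its total RNA of 118 and 176 CPM in the control and 155 and 156 CPM in the knockdown overlapped.

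For nucleotide supply, all 3 footprint values were negative. Rrm2, the small subunit of ribonucleotide reductase, whose level is known to follow S phase, read 360.1 and 365 CPM in control footprints and 246 and 327 CPM in the knockdown. Its total RNA was 229.9 and 288 CPM in the control and 198 and 209.7 CPM in the knockdown. Both pairs were separate, with log2 fold changes of -0.35 ± 0.18 (adjusted p = 0.461) and -0.34 ± 0.16 (adjusted p = 0.393). The mean CPM of Rrm2 in the knockdown was 79.0% of the control mean in footprints and 78.7% in total RNA. The large subunit Rrm1 lay at -0.24 and -0.10, and the thymidylate synthase Tyms at -0.14 and 0.10, all with overlapping groups.

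Because the 2 controls of total RNA lay apart in these genes, the 2 knockdown libraries were also compared with each control alone. The lone library was assumed to vary like the others. Against control 2, limma called 23 of the 45 genes, against 46.1% of all genes, 22 of them lower and 1 higher (Pole), where 23% of all genes were called lower and 23.1% higher. Against control 1 it called 12, against 25.4% of all genes, 3 of them lower (Pola1, Cdt1 and Lig1) and 9 higher, where 13.3% and 12% of all genes were. The median of the 45 was -0.22 against control 2 and 0.09 against control 1, and 23 genes had opposite signs in them, against 40.4% of all genes. Both comparisons use the same knockdown libraries and are not independent.

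Pola1 and Cdt1 were called lower against either control, 2 of 45 genes against 6.53% of all genes, and none was called higher against both, against 6.1%. Pola1 was at -0.66 against control 2 and -0.26 against control 1 (adjusted p = 3.89e-06 and 0.0177), and Cdt1 at -0.33 and -0.28 (adjusted p = 0.00158 and 0.00974). Orc6, Pcna and Rfc3 were called in opposite directions, 3 of 45 against 2.84%, with Pcna at -0.34 against control 2 and 0.26 against control 1, Orc6 at -0.25 and 0.27, and Rfc3 at -0.26 and 0.43. The genes of the second kind had 2 control values on either side of the knockdown values. A call against a single control is thus no measure of the knockdown here, since the controls differed more from each other than the knockdown libraries did.

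**Figure D4:**
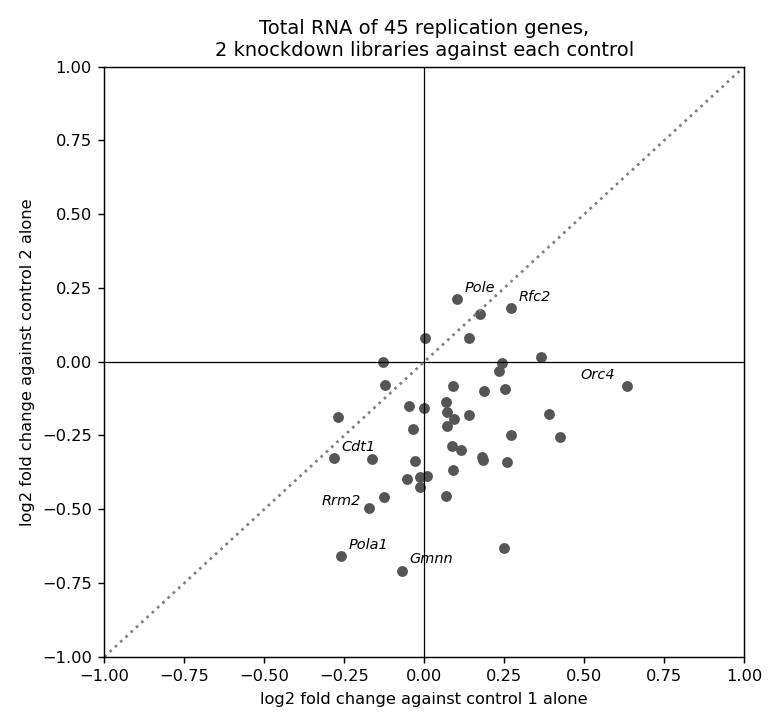
Log2 fold change in total RNA of the 2 knockdown libraries over control 1 alone (horizontal) and over control 2 alone (vertical) for the 45 genes, with a dotted line where both are equal. Most points lie below the line, 16 genes are negative on both axes (30.7% of all genes are), 6 are positive on both (28.9%), and 23 differ in sign.

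Translational efficiency, the footprint change beyond the total RNA change, was the question the 2 assays were combined for. Its change was taken as the interaction of assay and knockdown over 8 libraries, and no replication gene and none of 12278 genes passed (0%), nor did any of the 45 reach an unadjusted p below 0.05, against 1.54% of all genes. The value was negative for 29 of 45 genes, against 50.8%, with a median of -0.06 against 0.00 for all genes. Intervals lay within 2-fold for 43 of 45 genes, against 77.3% of genes with a mean of at least 10 CPM, and within 1.5-fold for 7, against 10.2%. The median was 0.15 without footprint knockdown 1, 0.10 without total RNA control 1 and -0.19 without total RNA control 2.

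The 5 genes with the smallest p-values in this comparison lay on both sides. Pola2 was at -0.29 ± 0.20, from lower footprints and higher total RNA, Rpa1 at -0.27 ± 0.26 and Pold2 at -0.22 ± 0.23. Rpa3 was at 0.36 ± 0.37 and Gmnn at 0.27 ± 0.29, each with an adjusted p of 1.00. Both positive values turned on total RNA control 2, being -0.08 and -0.05 without it. Pola1, the lowest gene in each assay, was at -0.06 ± 0.27, its footprint and total RNA values being nearly the same, and the clamp and its loader had 6 negative values of 6, from -0.20 to -0.02.

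Independently of the knockdown, the control libraries show how many footprints each gene had for its total RNA. This ratio compares 2 tables that were normalized separately, so its position among all genes is given rather than its absolute level. The median of the 45 genes was 0.07 on the log2 scale, against -0.30 for all 12278 genes, and 37 of 45 lay above the median of all genes. Related lists varied in this. Above it also lay 18 of 22 genes of mitosis (list median 0.29), 18 of 22 other fork and clamp genes (0.13) and 11 of 15 other nucleotide enzymes (0.03). Lower were checkpoint genes at 6 of 12 (-0.35), firing factors and kinases at 5 of 13 (-0.47), and E2F and pocket proteins at 3 of 13 (-0.76). Above the 75th percentile of all genes lay 20 of the 45, and below the 25th lay 3. Lig1 was highest, at 0.90 (control footprints 444 and 417 CPM for total RNA of 237 and 223 CPM), followed by Mcm3 at 0.75 and Pola2 at 0.70. Gins3 was lowest, at -1.13 (12.5 and 16.7 CPM for 28.2 and 37.8 CPM), followed by Rfc5 at -0.97 (125 and 143 CPM for 238 and 291 CPM) and Orc2 at -0.91 (101 and 159 CPM for 202 and 289 CPM).

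Members of one complex spread widely on this scale. The ORC subunits ran from -0.91 to 0.19, the clamp and its loader from -0.97 to 0.48, and polymerase alpha and primase from -0.22 to 0.70. The lists of only 3 genes had narrower or similar ranges. The licensing factors lay from 0.28 to 0.48, the nucleotide enzymes from 0.10 to 0.61 and polymerase epsilon from -0.15 to 0.30. Polymerase delta ran from -0.47 to 0.64. Gmnn alone was at -0.01 without total RNA control 1 and at 0.63 without control 2. In the knockdown libraries Lig1 was at 0.82, Mcm3 at 0.59 and Pola2 at 0.41, and Gins3, Rfc5 and Orc2 at -0.96, -0.98 and -1.21. The median of the 45 was -0.05 without total RNA control 1 and 0.24 without total RNA control 2.

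**Figure D5:**
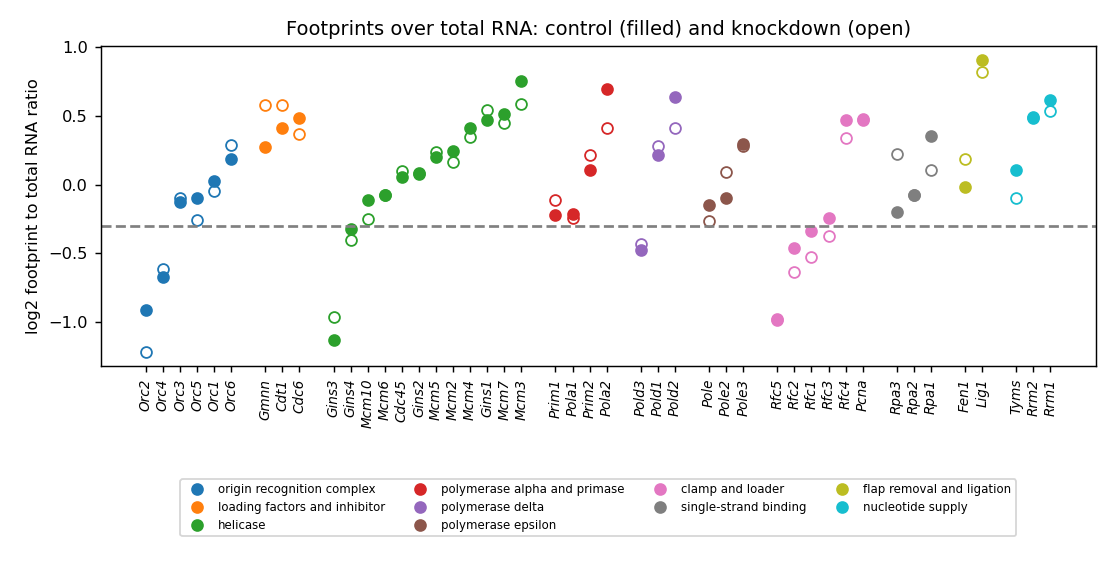
Log2 ratio of mean footprint to mean total RNA CPM for the 45 genes, grouped by role and ordered within each group by the control ratio, in control (filled) and knockdown (open) libraries. The dashed line is the median of all genes in control, -0.30. Gins3, Rfc5 and Orc2 lie lowest and Lig1 highest, in both conditions.

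Other genes of DNA replication and the cell cycle were compared as 6 further lists, and no member passed limma's adjusted threshold in footprints, total RNA or translational efficiency. Footprint fold changes were negative for 8 of 13 firing factors and kinases, 6 of 12 checkpoint genes, 14 of 22 other fork and clamp genes, 7 of 15 other nucleotide enzymes, 7 of 13 E2F and pocket proteins and 20 of 22 genes of mitosis. Their medians were -0.05, -0.01, -0.08, 0.05, -0.04 and -0.15. In total RNA negative values numbered 7, 10, 13, 8, 6 and 12 in the same order. Before adjustment a footprint p below 0.05 was reached by 1, 0, 2, 1, 1 and 1 genes of these lists, all with negative values, against the 12.9% of all genes given above. In total RNA it was reached on both sides, against 14.9% of all genes. There 0, 0, 2, 1, 1 and 2 genes had negative values and 0, 0, 1, 2, 1 and 0 positive ones.

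Of the genes with the smallest p-values in these lists, Nme1, a nucleoside diphosphate kinase with a close paralog that may share its reads, had the lowest footprint p. It read 154.9 and 243 CPM in control footprints and 87.1 and 97.9 CPM in the knockdown (-1.06 ± 0.22, adjusted p = 0.127). Chaf1b, a subunit of the factor that deposits histones behind the fork, read 92.9 and 103 CPM in control footprints and 59.4 and 73.6 CPM in the knockdown (-0.56 ± 0.18, adjusted p = 0.259). Its total RNA read 89.1 and 86.5 CPM against 70.6 and 68.2 CPM (-0.33 ± 0.13). Pclaf, which binds PCNA, read 61.6 and 80.8 CPM against 40.2 and 53.1 CPM in footprints (-0.60 ± 0.21, adjusted p = 0.288), and Cdk2, the S-phase kinase, 86.1 and 84.1 CPM against 58.7 and 64.7 CPM (-0.46 ± 0.16, adjusted p = 0.288). The groups of Nme1, Chaf1b, Pclaf and Cdk2 were separate in footprints, with knockdown below control, as in 22.6% of all genes. These genes were picked for small p-values, which largely fixes such separation in advance. Dna2, a nuclease of flap processing, lay above control in total RNA, with 115 and 121 CPM in the control and 159 and 160.4 CPM in the knockdown (0.43 ± 0.13, adjusted p = 0.210).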

How the data were processed

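Ribosome footprints and total RNA were measured in 2 knockdown and 2 control libraries each, and samples were grouped by their titles. The deposited expression values are a signal on the CPM scale, gene reads divided by an effective library size by the authors, per the file headers and the values themselves. The authors' deposited tables also hold log2 fold changes, a likelihood ratio score and p-values with FDR. The submitters' processing notes name the build mm9 and, without a role for each, edgeR 3.26.8, HTSeq 0.11.2, TopHat2 2.1.1 and Bowtie 1.2.3. Normalization by effective library size means that a shift shared by abundant genes moves with the column sum.

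Low genes were removed (mean of at least 1 CPM in footprints, edgeR's filter with a minimum count of 10 in total RNA), and log2(CPM + 1) was fitted with limma 3.58.1 (R 4.3.3), with Benjamini-Hochberg adjustment over all genes and a threshold of 0.05. Fold changes are on this scale and understate those of low genes. Each assay was fitted alone, and translational efficiency as the interaction over 8 libraries. With 2 libraries a group, the p-values of each assay fitted alone rest on 2 residual degrees of freedom, moderated across genes. Recovery of whole reads was accepted for 7 of 8 columns, and edgeR 4.0.16 and DESeq2 1.42.0 were run as alternatives on those. Footprint control 2 was left out, so that control 1 was the only control in the count tests of footprints. The fitting code was tested on simulated data.

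Genes named with values are the 6 subunits Mcm2 to Mcm7, the 5 smallest p-values of each comparison, the 3 highest and 3 lowest control ratios and up to 3 of each further list, and others were added after their values were seen to show the range of a complex. The members and lists were chosen with earlier results of these data known. Alternatives covered scaling, filters, pseudocounts, tools, the replicate block and leaving out each library.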

Additional observations from a re-analysis of the deposited data

How the results depend on the processing

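No replication gene passed in any setting other than total RNA with a control left out, which gave 23 calls without control 1 and 12 without control 2 (0 without either knockdown library). Over the 326 refits of single named genes whose setting altered the estimate, 308 kept their direction and 18 reversed. Many of these genes were named for a small p-value in the same data. The refits also reuse the same libraries, so these counts are no independent measure of stability. Genes called in footprints numbered 40 with median scaling, 22 with the replicate block, 89 with all 8 libraries in 1 fit, 21 with equal column sums, 3 with edgeR's quasi-likelihood test, 11 with DESeq2, 44 with the likelihood ratio test, and 1 to 30 with a library left out. In total RNA they numbered 636 with the replicate block, 97 with all 8 libraries, 272 with DESeq2, 824 with the likelihood ratio test, and 34 to 6191 with a library left out, and for translational efficiency 0 to 1. The labels do not say that replicate numbers pair the samples. Same-numbered deviations of knockdown and control correlated at 0.154 for footprints and -0.295 for total RNA, and those of control footprints and control total RNA at 0.208 (0.0191 to 0.152 for the other pairs of groups), so the numbers were not used as pairs. Translational efficiency had 0 genes called with the replicate block. The crossed pairing, added after the data were seen, called 924 genes in total RNA. Leaving out 1 library gave medians of the 45 genes from -0.28 to 0.0911 in footprints, -0.22 to 0.0879 in total RNA, -0.22 to 0.15 in translational efficiency and -0.0494 to 0.24 for the control ratio. It gave Mcm4 from -0.40 to 0.15, Mcm5 from -0.12 to 0.12 and Mcm7 from -0.27 to 0.0119 in footprints. In total RNA it gave Mcm4 from -0.14 to 0.0687, Mcm5 from -0.18 to 0.14 and Mcm7 from -0.17 to 0.0714. For translational efficiency Rpa3 ran from -0.0760 to 0.81 and Gmnn from -0.0530 to 0.59. Mcm5 footprints were -0.0427 with median scaling, -0.0610 with both edgeR tests and -0.0612 with DESeq2. Equal column sums, also added after the data were seen, gave a footprint median of 0.000196 and total RNA values of 0.0379, 0.0524 and 0.0224 for Mcm4, Mcm5 and Mcm7. The cause of these differences was not tested. Density per coding length was not run. With 2 libraries a group, counting error and other spread between libraries were not separated.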
